A study of Bos taurus with 6 samples.

Results

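The MAPK pathway members described here are the kinases, phosphatases and inputs of mitogen-activated protein kinase signalling in bovine longissimus muscle, the long muscle of the back. They are the transcripts that the deposited table of stage differences labels with the KEGG pathway of MAPK signalling and with neither that of focal adhesion nor that of protein processing in the endoplasmic reticulum. JUN, NR4A1, CACNA1S and heat shock genes were dropped by name. Of 83 transcripts of 80 genes with the MAPK label, 16 carried the focal adhesion label, 7 more the endoplasmic reticulum label, and HSPB1 and NR4A1 were dropped by name, which left 58 transcripts of 55 genes among the 5288 transcripts of the table.

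Muscle of 3 adult Qinchuan cattle, 24 months old, was compared with muscle of 3 Qinchuan embryos at 90 days, and the labels give no treatment of the 6 samples. The paper's methods give depletion of ribosomal RNA, whereas the labels give polyA RNA. Abundance was given by the authors as FPKM, a fragment count divided by exon length and by the number of mapped fragments. This allows levels of different genes to be compared per length. The table holds 1 value per stage for each transcript, so no spread between animals, no test and no interval can be given, and every difference below is a description of these values. It lists only transcripts that the authors had called different with at least 2-fold between the stages, so having a row is itself a selection, and a gene without a row was not analysed here. The number of fragments behind each value is unknown.

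MAPK signalling passes through tiers of kinases that phosphorylate each other in turn. A MAP kinase kinase kinase (MAP3K) activates a MAP kinase kinase (MAP2K), which activates a MAP kinase (MAPK), and kinases and transcription factors below the MAPK carry the signal on. Growth factors act mainly through the ERK branch, cytokines and stress mainly through the p38 and JNK branches, and p38 activity in muscle is known for its part in myoblast differentiation. Phosphatases of the DUSP family remove the activating phosphates from MAPKs.

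Of the 58 transcripts, 52 had the higher value in adult muscle and 6 the lower. In the whole table, 90.3% had the higher value in adult muscle and 9.68% the lower, so the share of members in each direction was near that of the table. The median log2 fold change (adult over embryo) was 2.88 over the members and 2.71 over the table, and the quartiles were 1.88 and 4.45 for the members against 1.81 and 3.72 for the table. A log2 fold change above 4 was found for 18 of 58 members, beside 19.9% of the table, and one below -2 for 4 members, beside 4.94% of the table. The 25 transcripts that the selection left out were all higher in adult muscle, with a median of 2.003. In bulk tissue, more cells of a type and more RNA per cell cannot be told apart.

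**Figure D1:**
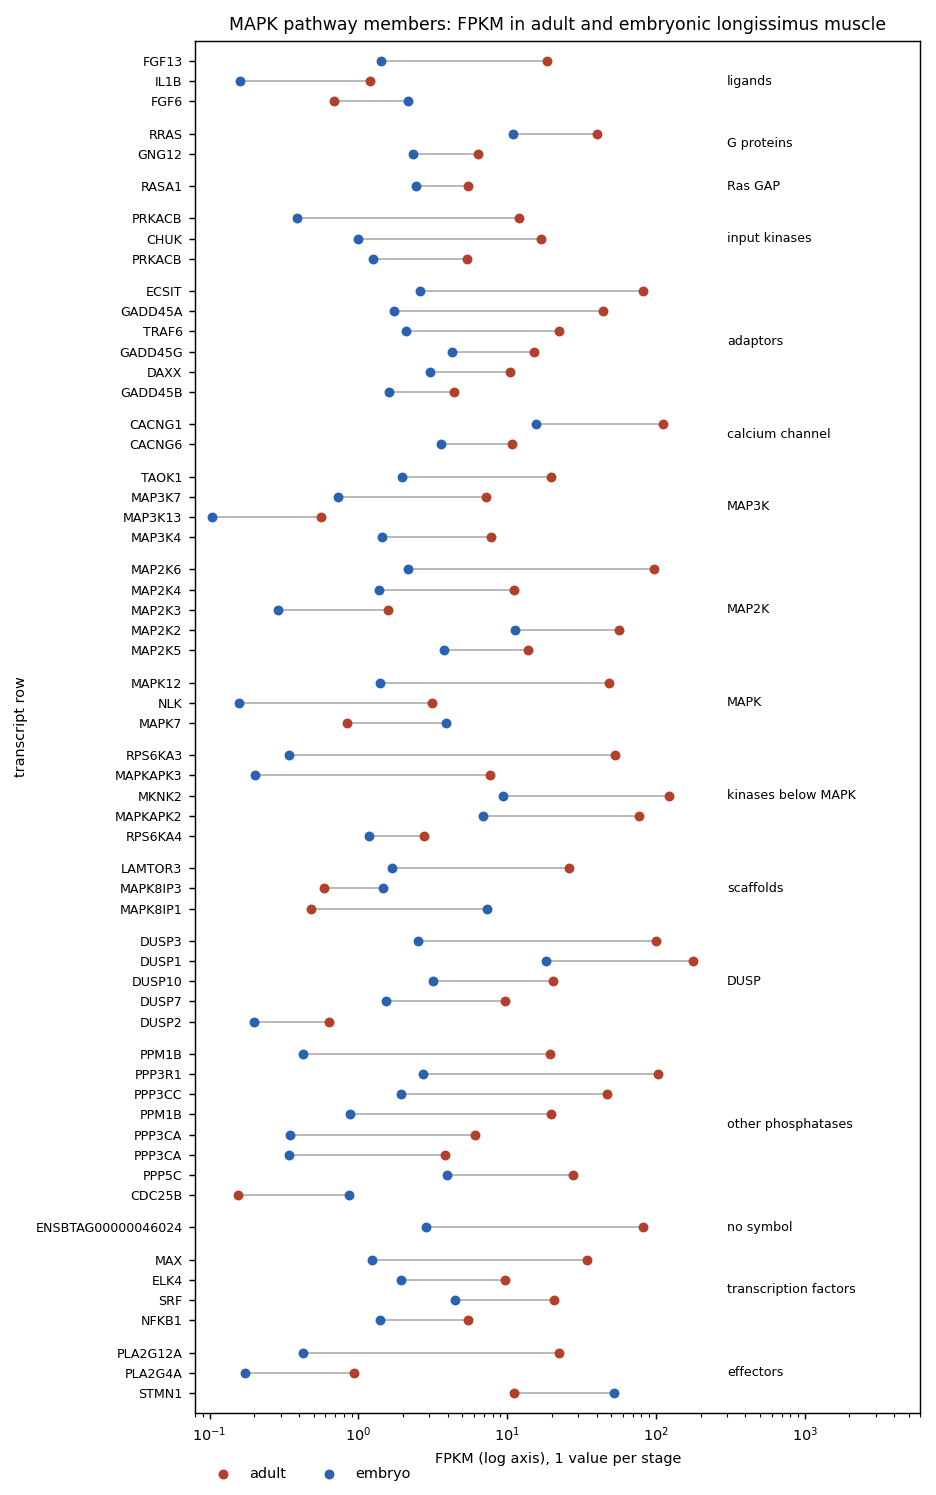
FPKM of the 58 member transcripts on a log axis, grouped by role, with 1 point for adult and 1 for embryonic muscle and a grey line between them. The adult point lies to the right for 52 transcripts and to the left for FGF6, MAPK7, MAPK8IP1, MAPK8IP3, CDC25B and STMN1, and centred on the housekeeping genes 18 transcripts are higher in adult muscle.

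Because most of the table was higher in adult muscle, the direction of a member depends on how the stages are scaled. The libraries also differed, since the paper reports a smaller exonic and a larger intronic share of mapped reads in embryonic than in adult samples. What this difference contributed to the values was not tested. The log2 fold changes are lowered by 2.71 when centred on the median of the table, by 2.31 when centred on 70 cytosolic ribosomal protein transcripts, by 4.02 when centred on 18 listed housekeeping transcripts, and by 3.25 when both stages are scaled to the same FPKM total. Members higher in adult muscle then number 31, 39, 18 and 27 in that order, beside 49.8%, 60.3%, 19.9% and 35.1% of the table. These centres come from called transcripts only. Low values weigh on the folds too. Adding 1 FPKM to both stages changed the fold of 29 of 58 members by over 1.5 times, among them all 17 under 1 FPKM in embryonic muscle, and turned the direction of none. The direction of 24 members was the same as deposited and under all 4 scalings. These are the 18 above the housekeeping centre, beside 19.9% of the table, and the 6 lower as deposited, beside 9.68% of it. Another 13 members that were higher as deposited were lower under each scaling. They lie below the ribosomal centre, the smallest shift, above which stood 39 of 58 members and 60.3% of the table.

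**Figure D2:**
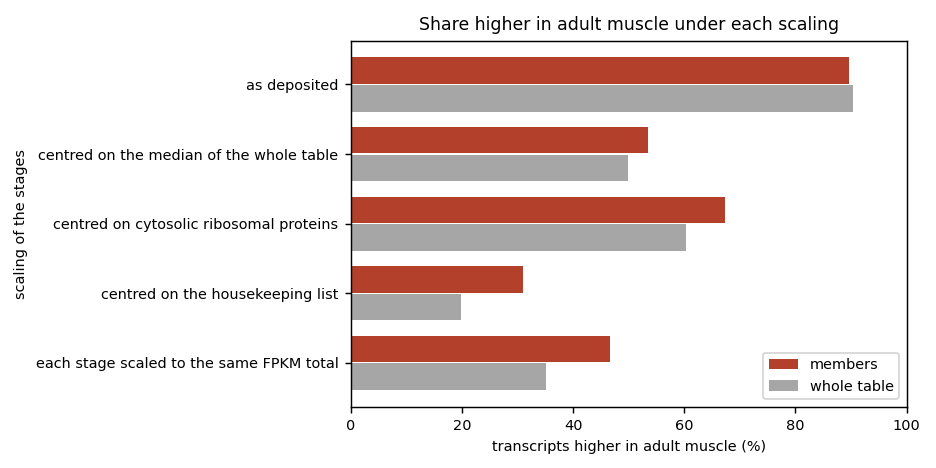
Percentage of transcripts higher in adult muscle as deposited and under 4 scalings of the stages, for the 58 members and for the whole table. The bars of members and table are nearly equal as deposited, and under each scaling fewer of both are higher, with 18 of 58 members at the lowest.

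Marker genes of muscle fibres were looked up in the table. Both stages are labelled as muscle and the table holds only stage differences, so this cannot check the tissue label. Of 14 fibre markers, 9 had rows, and all 10 of their transcripts were higher in adult muscle, with summed FPKM of 127602 in adult and 4477 in embryonic muscle and a median of 5.33 on the log2 scale over the 9 transcripts above 0 at both stages. Markers of other cell types that had rows also differed between the stages, as every transcript of the table does by selection. COL1A1 and COL1A2 of the fibroblast list were lower in adult muscle while PDGFRA was higher as deposited and lower under all 4 scalings (3 of 6 symbols listed, summed FPKM 106 in adult and 772 in embryo), and all 4 cartilage markers were lower (0.682 in adult, 19.8 in embryo). For Schwann cells, 3 of 5 markers had rows and were lower (0.689 in adult, 18.9 in embryo). Endothelial markers were higher as deposited for the 3 of 5 with rows (35.9 in adult, 10.3 in embryo), as were those of smooth muscle for 3 of 4 (177 in adult, 31.6 in embryo). Their median log2 fold changes, 2.05 and 1.87, lie below the shift of each scaling. MYF6 and MYOG, 2 of 6 myoblast markers, were higher as deposited (374 in adult, 27.6 in embryo), as was ADIPOQ, 1 of 4 adipocyte markers (6.75 in adult, 0.252 in embryo). The macrophage and erythroid lists had no rows. The part of these cells in the values of the members was not tested.

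The MAP2K tier was made up differently at the 2 stages, and all 7 of its genes had a row. MAP2K6, which activates p38, had 97.1 FPKM in adult and 2.17 FPKM in embryonic muscle, a 44.8-fold difference and a log2 fold change of 5.49. It lies on chromosome 19 of bosTau7, from 61696293 to 61814973, with the identifier ENSBTAG00000001609. MAP2K6 was the most abundant MAP2K in adult muscle and the fourth in embryonic muscle. MAP2K2, an activator of ERK, had 56.8 FPKM in adult and 11.3 FPKM in embryonic muscle (log2 fold change 2.33) and was the most abundant one in the embryo. MAP2K1, the other ERK activator, is left out of the members by its focal adhesion label and had 27.8 FPKM in adult and 7.46 FPKM in embryonic muscle (1.90).

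In adult muscle the remaining MAP2Ks were less abundant than these. MAP2K5, which activates ERK5, had 13.9 FPKM in adult and 3.74 FPKM in embryonic muscle (log2 fold change 1.89). MAP2K4, which acts on JNK and p38, had 11.1 FPKM in adult and 1.38 FPKM in embryonic muscle (3.01). MAP2K7, an activator of JNK that is left out of the members by its endoplasmic reticulum label, had 5.59 FPKM in adult and 0.982 FPKM in embryonic muscle (2.51). MAP2K3, which also activates p38, had 1.58 FPKM in adult and 0.286 FPKM in embryonic muscle (2.47). All 7 were higher in adult muscle as deposited, but only MAP2K6 stayed higher under all 4 scalings, and MAP2K1 and MAP2K5 turned lower under each.

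Shares of the tier do not depend on how the stages are scaled. MAP2K6 made up 45.4% of the summed FPKM of the 7 genes in adult and 7.95% in embryonic muscle. The ERK activators MAP2K1 and MAP2K2 together made up 39.6% in adult and 68.6% in embryonic muscle, and MAP2K5 made up 6.48% in adult and 13.7% in embryonic muscle. MAP2K4 held nearly the same share at both stages, 5.18% in adult and 5.05% in embryo. FPKM of MAP2K3 and MAP2K6 over that of the ERK activators was 1.17 in adult and 0.131 in embryonic muscle, a log2 difference of 3.15. With MAP2K4 added to the p38 activators, a choice made after seeing the data, the ratio was 1.30 in adult and 0.205 in embryonic muscle, a log2 difference of 2.66. This difference rests on MAP2K6, since the share of MAP2K3 was 0.740% in adult and 1.05% in embryonic muscle, and MAP2K6 exceeded MAP2K3 by 61.4 times in adult and 7.57 times in embryonic muscle.

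**Figure D3:**
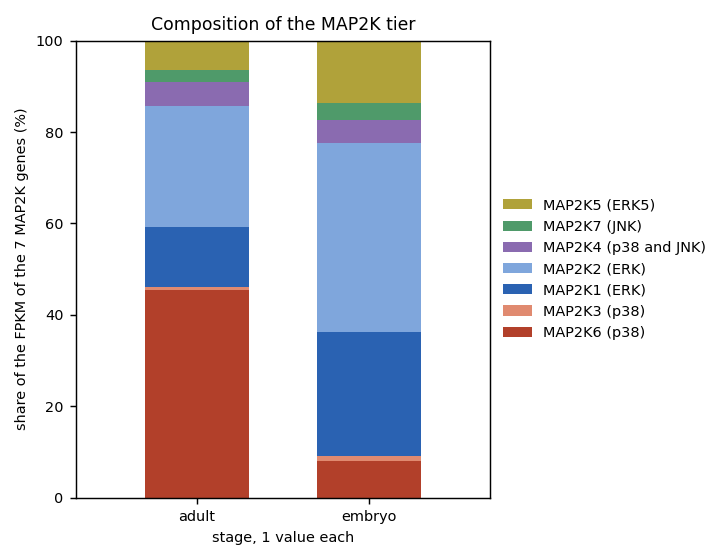
Share of each MAP2K gene in the summed FPKM of the 7 MAP2K genes, in percent, for adult and embryonic muscle, with the branch each gene serves in brackets. The MAP2K6 block is 45.4% in adult and 7.95% in embryonic muscle, and the blocks of MAP2K1 and MAP2K2 are together the larger part in the embryo.

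Members placed by role in the p38 branch alone, which does not exclude other roles, were 6 transcripts, each with more FPKM in adult muscle. Their log2 fold changes ran between 2.47 and 5.49, with 4.94 as the median. Under the scalings, 6 of them were higher against ribosomal proteins, 5 against the table median, 5 against the FPKM total and 4 against housekeeping genes. MAPK12, the p38 isoform known for its abundance in skeletal muscle, had 48.1 FPKM in adult and 1.41 FPKM in embryonic muscle (5.10, chromosome 5, 119821313 to 119829407). Of the other p38 genes, MAPK11, MAPK13 and MAPK14 had no row. MAPKAPK2 and MAPKAPK3 are kinases activated by p38. MAPKAPK2 had 76.6 FPKM in adult and 6.90 FPKM in embryonic muscle (3.47) and was lower when centred on the housekeeping genes. MAPKAPK3 had 7.67 FPKM in adult and 0.203 FPKM in embryonic muscle (5.24, or 2.85 with 1 FPKM added to both stages). MAX, the dimer partner of MYC, is drawn below p38 in the pathway and had 34.3 FPKM in adult and 1.24 FPKM in embryonic muscle (4.79). MAP2K3 was the lowest of the 6 by fold change and by adult level.

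**Figure D4:**
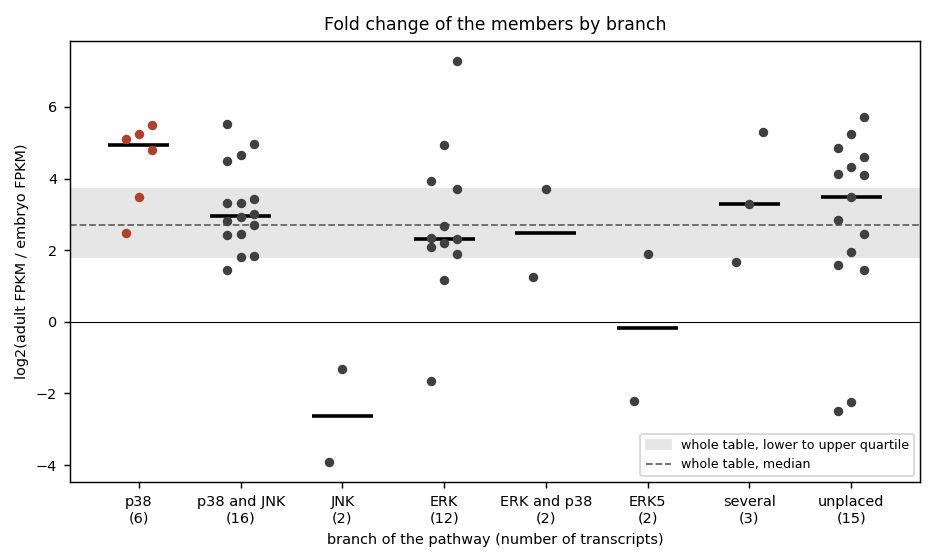
Log2 fold change (adult over embryo) of each member by branch of the pathway, with the number of transcripts in brackets, a bar for the branch median, and the median and quartiles of the whole table as a dashed line and grey band. The p38 points lie between 2.47 and 5.49 with a median of 4.94, the ERK median is 2.32 and the 2 JNK scaffolds lie below 0, and centred on the median of the table, the ERK median is lower in adult muscle.

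Another 16 transcripts were placed in both the p38 and JNK branches, from ligands and adaptors through MAP3Ks and MAP2K4 to phosphatases. All 16 were higher in adult muscle as deposited (median 2.96 on the log2 scale), but only 4 were above the housekeeping centre, 7 above the FPKM total, 10 above the table median and 13 above the ribosomal proteins. The 4 MAP3Ks among them spanned a narrow range of log2 fold change, 2.43 to 3.32. TAOK1 had 19.7 FPKM in adult and 1.97 FPKM in embryonic muscle (3.32). MAP3K4, a partner of GADD45 proteins, had 7.78 FPKM in adult and 1.44 FPKM in embryonic muscle (2.43). MAP3K7, known as TAK1, which relays cytokine receptors, had 7.24 FPKM in adult and 0.727 FPKM in embryonic muscle (3.31). MAP3K13 was the scarcest, at 0.561 FPKM in adult and 0.103 FPKM in embryonic muscle (2.44). All 4 were lower in adult muscle when centred on the housekeeping genes, and MAP3K4 and MAP3K13 also on the table median and the FPKM total. MAP3K5, left out by its endoplasmic reticulum label, had 3.19 FPKM in adult and 1.18 FPKM in embryonic muscle (1.43).

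Adaptors of these branches split into a group with large and a group with small differences. ECSIT, which links TRAF6 signalling and is also an assembly factor of mitochondrial complex I, had 81.3 FPKM in adult and 2.61 FPKM in embryonic muscle (4.96). TRAF6, a ubiquitin ligase below interleukin-1 and Toll-like receptors, had 22.5 FPKM in adult and 2.10 FPKM in embryonic muscle (3.42) and was lower when centred on the housekeeping genes. DAXX had 10.5 FPKM in adult and 3.01 FPKM in embryonic muscle (1.80). The GADD45 genes, induced by stress and able to bind MAP3K4, differed among themselves. GADD45A had 44.1 FPKM in adult and 1.73 FPKM in embryonic muscle (4.67). GADD45G had 15.2 FPKM in adult and 4.24 FPKM in embryonic muscle (1.84). GADD45B had 4.40 FPKM in adult and 1.60 FPKM in embryonic muscle (1.46). GADD45A exceeded GADD45G by 2.91 times in adult muscle and stood at 0.409 of it in embryonic muscle, so their order was opposite at the 2 stages. ECSIT and GADD45A stayed higher in adult muscle under all 4 scalings, whereas GADD45B, GADD45G and DAXX were lower under each.

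Members placed in the JNK branch alone were 2 scaffold proteins, and both were lower in adult muscle. MAPK8IP1, known as JIP1, had 0.483 FPKM in adult and 7.34 FPKM in embryonic muscle, a log2 fold change of -3.92 and the lowest of all members (chromosome 15, 76794435 to 76813776). MAPK8IP3, known as JIP3, had 0.588 FPKM in adult and 1.47 FPKM in embryonic muscle (-1.32). Both are best known from nerve cells, for which no marker list was made, and the part of such cells in these values was not tested. The listed kinases of the branch, which the selection left out, were higher in adult muscle as deposited, and MAP2K7 was lower when centred on the table median, the housekeeping genes or the FPKM total. MAPK8, known as JNK1, had 12.6 FPKM in adult and 0.420 FPKM in embryonic muscle (4.91) and stayed higher under all 4 scalings, and MAPK9 and MAPK10 had no row. With the left-out transcripts of MAPK8, MAP2K7 and JUN included, the JNK branch median was 1.50 over 5 transcripts as deposited, against -2.62 over the 2 scaffolds.

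The ERK branch held 12 transcripts, of which 11 were higher in adult muscle as deposited (median 2.32 on the log2 scale). The 12 include FGF13 and the pair of PRKACB transcripts, which are described further below. That median is lower in adult muscle when centred on the table median, on the housekeeping genes or on the FPKM total, and near 0 (0.018) when centred on the ribosomal proteins. ARAF and BRAF, kinases that open the branch, had rows without the MAPK label. ARAF had 37.0 FPKM in adult and 4.93 FPKM in embryonic muscle (2.91). BRAF had 2.18 FPKM in adult and 0.763 FPKM in embryonic muscle (1.51). Both were lower in adult muscle when centred on the housekeeping genes or the FPKM total, and BRAF under all 4 scalings. LAMTOR3, a scaffold that holds MAP2K1 and ERK on late endosomes, had 26.0 FPKM in adult and 1.69 FPKM in embryonic muscle (3.94) and was lower when centred on the housekeeping genes. RRAS, a small G protein related to Ras, had 40.3 FPKM in adult and 11.0 FPKM in embryonic muscle (1.88). RASA1, which switches Ras off, had 5.45 FPKM in adult and 2.44 FPKM in embryonic muscle (1.16) and overlaps ENSBTAG00000009566, which had 11.9 FPKM in adult and 0.861 FPKM in embryonic muscle (3.79). RRAS and RASA1 were lower in adult muscle under all 4 scalings.

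RPS6KA3, the kinase RSK2 activated by ERK, had the largest difference of all members. It had 53.4 FPKM in adult and 0.342 FPKM in embryonic muscle, a 156-fold difference and a log2 fold change of 7.29 (chromosome X, 130193473 to 130306029). The embryonic value is low, and with 1 FPKM added to both stages the log2 fold change was 5.34. Its relative RPS6KA4 (MSK2), activated by ERK and p38, had 2.77 FPKM in adult and 1.17 FPKM in embryonic muscle (1.24) and was lower under all 4 scalings. MKNK2, which phosphorylates the translation factor eIF4E, had 123 FPKM in adult and 9.45 FPKM in embryonic muscle (3.70) and was lower when centred on the housekeeping genes.

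The ERK5 pair went in opposite directions. MAPK7, which is ERK5, had 0.834 FPKM in adult and 3.88 FPKM in embryonic muscle (-2.22, chromosome 19, 34685204 to 34693425), whereas its activator MAP2K5 was higher in adult muscle as deposited and lower under all 4 scalings. The MAPK7 locus overlaps that of MFAP4, an extracellular matrix gene with 3.38 FPKM in adult and 12.5 FPKM in embryonic muscle (-1.89), and how reads of the overlap were assigned is not given in the sources used here. NLK, an atypical MAPK that acts on Wnt signalling, had 3.14 FPKM in adult and 0.158 FPKM in embryonic muscle (4.31, or 1.84 with 1 FPKM added to both stages). MAPK12 exceeded MAPK7 by 57.7 times in adult muscle and stood at 0.363 of it in embryonic muscle.

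All 5 DUSP members, which dephosphorylate MAPKs, were higher in adult muscle as deposited, with 4 above the ribosomal proteins, 2 above the table median, 2 above the FPKM total and 1 above the housekeeping centre. DUSP1, an immediate-early gene that acts on p38, JNK and ERK, had 176 FPKM in adult and 18.2 FPKM in embryonic muscle (3.28) and was the most abundant member in adult muscle. DUSP3 had 100.2 FPKM in adult and 2.53 FPKM in embryonic muscle (5.30). DUSP10, which prefers p38 and JNK, had 20.4 FPKM in adult and 3.15 FPKM in embryonic muscle (2.70). DUSP7, which prefers ERK, had 9.74 FPKM in adult and 1.54 FPKM in embryonic muscle (2.66). DUSP2 was scarce, at 0.635 FPKM in adult and 0.200 FPKM in embryonic muscle (1.67). DUSP1 exceeded DUSP3 by 1.76 times in adult and 7.17 times in embryonic muscle, and DUSP3 alone of the 5 stayed higher under all 4 scalings.

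Calcineurin, the calcium-activated phosphatase of NFAT transcription factors, is also on the pathway map. Its 5 transcripts were all higher in adult muscle (median 4.61 on the log2 scale), and 4 of them stayed higher under all 4 scalings. PPP3R1, the regulatory subunit, had 104 FPKM in adult and 2.74 FPKM in embryonic muscle (5.25, chromosome 11, 66580959 to 66642725). The catalytic subunit PPP3CC had 47.2 FPKM in adult and 1.93 FPKM in embryonic muscle (4.61). The catalytic subunit PPP3CA had a transcript with 6.09 FPKM in adult and 0.349 FPKM in embryonic muscle (4.13). Its other transcript had 3.82 FPKM in adult and 0.343 FPKM in embryonic muscle (3.48) and was lower when centred on the housekeeping genes. The gene ENSBTAG00000046024, without a symbol in the table and annotated there with calmodulin-dependent protein phosphatase activity, had 82.2 FPKM in adult and 2.84 FPKM in embryonic muscle (4.86).

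Among the other phosphatases, PPM1B, a metal-dependent phosphatase that acts on MAP3K7, had 2 transcripts with 19.7 FPKM in adult and 0.874 FPKM in embryonic muscle (4.50), and with 19.4 FPKM in adult and 0.425 FPKM in embryonic muscle (5.51). The second transcript made up 49.6% of the 2 in adult and 32.7% in embryonic muscle. PPP5C had 27.7 FPKM in adult and 3.93 FPKM in embryonic muscle (2.82) and was lower when centred on the housekeeping genes or the FPKM total. CDC25B, a cell cycle phosphatase that activates cyclin-dependent kinases, had 0.156 FPKM in adult and 0.871 FPKM in embryonic muscle (-2.48). Both values are under 1 FPKM, and with 1 FPKM added to both stages its log2 fold change was -0.69.

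Of the listed inputs, 5 of 36 ligand symbols and 2 of 16 receptor symbols had a row, beside 83 of 253 symbols of the whole pathway list. A symbol without a row was not analysed here, so these counts do not give the number of inputs expressed. Of the members on the ligand list, FGF13 had 18.6 FPKM in adult and 1.43 FPKM in embryonic muscle (3.71) and was lower when centred on the housekeeping genes. FGF13 is an intracellular protein that was placed with the ligands, and in the ERK branch, as part of the fibroblast growth factor family. FGF6, a secreted growth factor of the muscle lineage, had 0.685 FPKM in adult and 2.15 FPKM in embryonic muscle (-1.65). IL1B, an inflammatory cytokine, had 1.20 FPKM in adult and 0.159 FPKM in embryonic muscle (2.92) and was lower when centred on the housekeeping genes or the FPKM total. FGF13 exceeded FGF6 by 27.2 times in adult muscle and stood at 0.663 of it in embryonic muscle.

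Calcium channel subunits and input kinases were higher in adult muscle as deposited. CACNG1, the gamma subunit of the skeletal muscle calcium channel, had 112 FPKM in adult and 15.6 FPKM in embryonic muscle (2.84), and CACNG6 had 10.7 FPKM in adult and 3.59 FPKM in embryonic muscle (1.58). CACNG6 was lower under all 4 scalings and CACNG1 under those on housekeeping genes and the FPKM total. CHUK, a kinase of the NF-kappaB inhibitor, had 17.0 FPKM in adult and 0.987 FPKM in embryonic muscle (4.11) and kept its direction under all 4. GNG12, a G protein subunit, had 6.34 FPKM in adult and 2.32 FPKM in embryonic muscle (1.45) and did not.

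PRKACB, a catalytic subunit of protein kinase A, was listed with a pair of transcripts that exchanged their order. ENSBTAT00000050033 had 12.0 FPKM in adult and a low 0.389 FPKM in embryonic muscle (4.94, or 3.22 with 1 FPKM added to both stages). ENSBTAT00000044032 had 5.40 FPKM in adult and 1.26 FPKM in embryonic muscle (2.10, or 1.50 with 1 FPKM added). The first made up 68.9% of the FPKM of both in adult and 23.6% in embryonic muscle. Any transcript of the gene without a row is not in these shares. Under all 4 scalings, ENSBTAT00000050033 stayed higher in adult muscle and ENSBTAT00000044032 was lower.

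Transcription factors and effectors at the end of the pathway were mixed. SRF, which drives muscle and immediate-early genes, had 20.6 FPKM in adult and 4.49 FPKM in embryonic muscle (2.20). Its partner ELK4 had 9.63 FPKM in adult and 1.93 FPKM in embryonic muscle (2.32). NFKB1 had 5.42 FPKM in adult and 1.40 FPKM in embryonic muscle (1.96). SRF and NFKB1 were lower under all 4 scalings, and ELK4 under all but that on ribosomal proteins. PLA2G12A, a secreted phospholipase A2, had 22.3 FPKM in adult and 0.426 FPKM in embryonic muscle (5.71), and PLA2G4A, the cytosolic one that releases arachidonic acid, had 0.941 FPKM in adult and 0.173 FPKM in embryonic muscle (2.44) and was lower under all scalings but that on ribosomal proteins. STMN1, or stathmin, which destabilizes microtubules and is abundant in dividing cells and neurons, had 11.1 FPKM in adult and 52.3 FPKM in embryonic muscle (-2.23, chromosome 2, 127749052 to 127779439).

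The 6 members lower in adult muscle kept that direction under all 4 scalings, since each scaling lowers every fold change. Of these, all but STMN1 were under 1 FPKM in adult muscle, and 5 of the 8 members under 1 FPKM in adult muscle were lower there. In the whole table, 404 of 5288 transcripts were under 1 FPKM in adult muscle. How many of those were lower there was not counted, so the 5 of 8 cannot be set against the table. MAPK8IP1, MAPK8IP3 and STMN1 carry no pathway label other than MAPK, as do 17 members in all. Of these, 14 were higher in adult muscle, beside 90.3% of the table.

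A list of 253 pathway symbols was written by role from knowledge of the pathway and does not hold every gene of each family. A row was found for 83 of these symbols, with 79 of their 86 transcripts higher and 7 lower in adult muscle and a median log2 fold change of 2.43. In the whole table, 90.3% were higher and the median was 2.71, so the share of these transcripts was near that of the table. Rows were found for 7 of 7 listed MAP2Ks, 8 of 20 MAP3Ks, 4 of 11 MAPKs and 5 of 16 DUSPs. MAP3K10 and 5 further DUSP genes have rows but are not on the list, so these counts do not describe whole families.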

How the data were processed

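RNA of 3 adult and 3 embryonic longissimus samples was sequenced as paired ends, by the paper's methods after depletion of ribosomal RNA. The labels give a read length of 125 bp and polyA RNA, so they differ from the methods in both the length and the selection of RNA. The labels name no litter or batch. The submitters' processing notes name Trim Galore, TopHat2 2.0.14 and Cufflinks, and the methods name the bosTau7 genome. The deposited FPKM values were computed by the authors, 1 per stage and transcript, for transcripts they called different with at least 2-fold. The authors' own fold changes, p-values and q-values stand in the same table, and 3 further tables hold their enrichment of GO terms. None of these were used.

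Log2 fold changes were recomputed as log2 of adult over embryonic FPKM without a pseudocount. For 40 transcripts listed at 0 in 1 stage, none of them a member, no fold change was formed. Alternatives were pseudocounts of 1 and 0.1 FPKM, a minimum of 2 FPKM in the higher stage, 1 value per gene, 4 scalings, a 4-fold minimum and all 83 transcripts with the MAPK label. Named are all kinases, scaffolds and phosphatases, all members lower in adult muscle, the 4 largest differences in every other role, and RAF, MAP2K and MAPK genes left out of the members, of which some are not reported here. Members, roles, marker lists and housekeeping genes were chosen with earlier results of these data known. Counts were made with Python and pandas, and the code was tested on simulated data. Coordinates are those of the table.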

Additional observations from a re-analysis of the deposited data

How the results depend on the processing

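The count of 52 members higher in adult muscle became 31 centred on the table median, 27 scaled to the same FPKM total and 18 centred on the housekeeping genes. The members' median log2 fold change (2.88) was 2.25 and 2.81 with 1 and 0.1 FPKM added, 3.31 among transcripts above 2 FPKM in the higher stage, 2.84 per gene, 3.47 among those at least 4-fold apart and 2.44 over all transcripts with the MAPK label. It was 0.17 centred on the table median, 0.57 on the ribosomal proteins, -1.14 on the housekeeping genes and -0.37 on the FPKM total. The ERK median (2.32) was 2.03 and 2.29 with 1 and 0.1 FPKM added, 2.66 at 4-fold and 2.20 over all labelled transcripts, and -0.38, 0.018, -1.70 and -0.93 under the scalings in the same order. The p38 median (4.94) was 3.64 and 4.68 with 1 and 0.1 FPKM added, 5.10 above 2 FPKM, 4.79 over all labelled transcripts and 3.32 with transcripts of shared branches counted in each, and 2.24, 2.63, 0.92 and 1.69 under the scalings. The JNK median (-2.62) was -1.56 and -2.43 with 1 and 0.1 FPKM added and -3.92 above 2 FPKM or at 4-fold, where 1 transcript is left. It was 1.50 over all labelled transcripts and 2.87 with shared branches counted in each, and -5.33, -4.93, -6.64 and -5.87 under the scalings.

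Centred on the table median, the log2 fold change turned negative for 25 transcripts: GNG12 -1.25, DAXX -0.90, GADD45G -0.87, RRAS -0.82, MAP2K5 -0.81, SRF -0.50, ELK4 -0.39, MAP2K2 -0.37, DUSP7 -0.043, DUSP10 -0.0072, NFKB1 -0.75, MAP2K3 -0.24, GADD45B -1.25, PLA2G4A -0.26, PRKACB (ENSBTAT00000044032) -0.61, MAP3K4 -0.27, RPS6KA4 -1.46, CACNG6 -1.12, MAP3K13 -0.27, RASA1 -1.54, DUSP2 -1.04, MAP3K5 -1.28, MAP2K1 -0.81, MAP2K7 -0.20 and BRAF -1.19. Centred on the ribosomal proteins, the log2 fold change turned negative for 16 transcripts: GNG12 -0.86, DAXX -0.50, GADD45G -0.47, RRAS -0.43, MAP2K5 -0.42, SRF -0.10, NFKB1 -0.35, GADD45B -0.85, PRKACB (ENSBTAT00000044032) -0.21, RPS6KA4 -1.06, CACNG6 -0.73, RASA1 -1.15, DUSP2 -0.64, MAP3K5 -0.88, MAP2K1 -0.41 and BRAF -0.79. Centred on the housekeeping genes, the log2 fold change turned negative for 39 transcripts: GNG12 -2.57, DAXX -2.22, GADD45G -2.18, RRAS -2.14, MAP2K5 -2.13, SRF -1.82, ELK4 -1.71, MAP2K2 -1.69, DUSP7 -1.36, DUSP10 -1.32, PPP5C -1.20, CACNG1 -1.18, MAP2K4 -1.01, DUSP1 -0.74, MAP3K7 -0.71, TAOK1 -0.70, TRAF6 -0.60, MAPKAPK2 -0.55, PPP3CA (ENSBTAT00000021305) -0.54, MKNK2 -0.32, FGF13 -0.31, LAMTOR3 -0.076, NFKB1 -2.07, MAP2K3 -1.55, GADD45B -2.56, PLA2G4A -1.58, PRKACB (ENSBTAT00000044032) -1.92, MAP3K4 -1.59, RPS6KA4 -2.78, IL1B -1.10, CACNG6 -2.44, MAP3K13 -1.58, RASA1 -2.86, DUSP2 -2.35, MAP3K5 -2.59, MAP2K1 -2.12, ARAF -1.11, MAP2K7 -1.51 and BRAF -2.51. Scaled to the same FPKM total, the log2 fold change turned negative for 30 transcripts: GNG12 -1.80, DAXX -1.45, GADD45G -1.41, RRAS -1.37, MAP2K5 -1.36, SRF -1.05, ELK4 -0.94, MAP2K2 -0.92, DUSP7 -0.59, DUSP10 -0.55, PPP5C -0.43, CACNG1 -0.41, MAP2K4 -0.25, NFKB1 -1.30, MAP2K3 -0.79, GADD45B -1.80, PLA2G4A -0.81, PRKACB (ENSBTAT00000044032) -1.16, MAP3K4 -0.82, RPS6KA4 -2.01, IL1B -0.34, CACNG6 -1.67, MAP3K13 -0.81, RASA1 -2.09, DUSP2 -1.58, MAP3K5 -1.82, MAP2K1 -1.36, ARAF -0.35, MAP2K7 -0.74 and BRAF -1.74.

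A value that moved by under 0.01 on the log2 scale was taken as unmoved. No paired analysis was possible because the deposited table has 1 value per stage and does not give values of single animals, and for the same reason no sample was left out in turn. The number of fragments behind each value is unknown. The paper gives the mapped reads of each sample, but no limit for single values was derived from them.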

Other observations

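Another 5 DUSP genes (DUSP11, DUSP12, DUSP15, DUSP26 and DUSP27) stood in the table without the MAPK label, all higher in adult muscle as deposited, and they were picked out after their values were seen. DUSP26 had 384 FPKM in adult and 8.70 FPKM in embryonic muscle (log2 fold change 5.46), more than DUSP1 in adult muscle. DUSP15 had 25.6 FPKM in adult and 0.909 FPKM in embryonic muscle (4.82). DUSP27 had 104 FPKM in adult and 12.7 FPKM in embryonic muscle (3.04) and was lower when centred on the housekeeping genes or the FPKM total. MAP3K10, likewise without the label, had 3.97 FPKM in adult and 0.605 FPKM in embryonic muscle (2.71) and was also lower when centred on the housekeeping genes or the FPKM total.

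By position, 8 of 58 member transcripts (13.8%) lay on chromosome 19, which holds 6.09% of the table. They are CACNG1, DUSP3, MAP2K3, MAP2K4, MAP2K6, MAPK7, NLK and TAOK1. Chromosome 19 is named because it held the most members, and other chromosomes also differed from the table, in either direction. Chromosome 6 held 8.62% of the members and 2.55% of the table, and chromosome 1 held 1.72% and 4.24%. No test was made of these shares. GNG12 and GADD45A lie 17.9 kb apart on chromosome 3, with log2 fold changes of 1.45 and 4.67.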
